A study of Mus musculus with 18 samples.

Results

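Cultures at day 8 of neural differentiation were compared with undifferentiated embryonic stem (ES) cells of the same line, gene by gene. The comparison used 4 of the 18 RNA-seq libraries of the series, chosen by their labels as the 2 libraries of the day 8 group and the 2 of the untreated day 0 group, here called ES control, out of 9 groups. Both groups came from E14, a wild type mouse ES cell line, so the values describe 1 line, and no transgene or sort is named in the labels. The day 8 cells had been deprived of leukemia inhibitory factor (LIF), aggregated as floating embryoid bodies and given all-trans retinoic acid at 5 µM over 4 days. The growth notes go on to plating on laminin and poly-ornithine in N2 medium, and do not say whether day 8 was sampled before or after that step. ES control cells grew without feeder cells on gelatin in medium with serum and LIF, and also served as the control of the ligand treatments elsewhere in the series. The treatment notes, shared by all samples, list retinoic acid at 1 µM and dimethylsulfoxide as vehicle without tying either to these 2 groups. The labels give the cell type of both groups as embryonic stem cells, and the replicates are not said to be separate cultures, so the p-values below measure the spread between libraries, which may be technical.

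ES cells are kept undifferentiated by a network of transcription factors around Oct4 (encoded by Pou5f1), Nanog and Sox2, which LIF helps to maintain. Retinoic acid binds the retinoic acid receptors, which pair with retinoid X receptors on DNA. In the embryo it turns on Hox genes that give hindbrain and spinal cord cells their position along the body axis, and in aggregated ES cells it favours neural progenitors, which then leave the cell cycle and become neurons under proneural transcription factors.

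The day 8 libraries held 25.16 and 29.95 M gene counts and the ES control libraries 24.36 and 27.24 M. Levels are counts per M counts (CPM) scaled by the TMM method, a gene rose or fell where its adjusted p in edgeR's quasi-likelihood test was below 0.05, and it changed beyond 2-fold where it passed edgeR's test against a 2-fold minimum at the same threshold. Of 17166 genes tested, 13518 (78.7%) rose or fell, 6807 (39.7%) of them higher at day 8 and 6711 (39.1%) lower. A change beyond 2-fold was called for 6139 genes (35.8%), of which 3264 (19.0% of those tested) were higher and 2875 (16.7%) lower, and the median log2 fold change over all genes was 0.00. The shares of 19.0% and 16.7% are the background for every count of list members below, and no list was tested against them. Fitted changes reached 4-fold or more in 4209 genes and 64-fold or more in 751, and of those 751 genes 553 were higher at day 8 and 198 lower. For 90.0% of genes tested the libraries of 1 group lay entirely above those of the other, so such a separation says little about any single gene. Library quality was close in the 4 files, with 63.52 to 63.54% of reads in no gene at day 8 and 64.93 to 65.03% in ES control, and the 10 most counted genes held 2.766 to 2.805% of counts at day 8 and 4.324 to 4.399% in ES control.

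The genes that mark the step changed in the direction of the labels. Pou5f1 (chromosome 17, 35506018 to 35510772) had 9.44 and 7.94 CPM at day 8, against 688 and 709 CPM in ES control. Both day 8 libraries were far below both ES control libraries, an 80.7-fold fall (log2 -6.33 ± 0.175, SE; adjusted p = 2.23e-17), which left Pou5f1 low but detectable. Tubb3 (chromosome 8, 123411424 to 123422015), the tubulin of young neurons, had 873 and 891 CPM at day 8, against 22.7 and 23.4 CPM in ES control, a 38.3-fold rise (log2 5.26 ± 0.123; adjusted p = 2.03e-18). Dcx (chromosome X, 143855842 to 143933311), which encodes doublecortin, a microtubule protein of migrating neurons, was the clearest switch, at 933 and 959.5 CPM at day 8, against 0.132 and 0.158 CPM in ES control. The ES control level rested on 3 and 4 counts, so no fold is given (adjusted p = 7.77e-22). Hoxb9 (chromosome 11, 96271457 to 96276595), a Hox gene of trunk levels, had 302 and 296 CPM at day 8, against 0.967 and 0.948 CPM in ES control, 311-fold higher (log2 8.28 ± 0.173; adjusted p = 3.96e-19). In RNA of whole cultures, fewer cells of a type and less RNA per cell cannot be told apart.

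**Figure D1:**
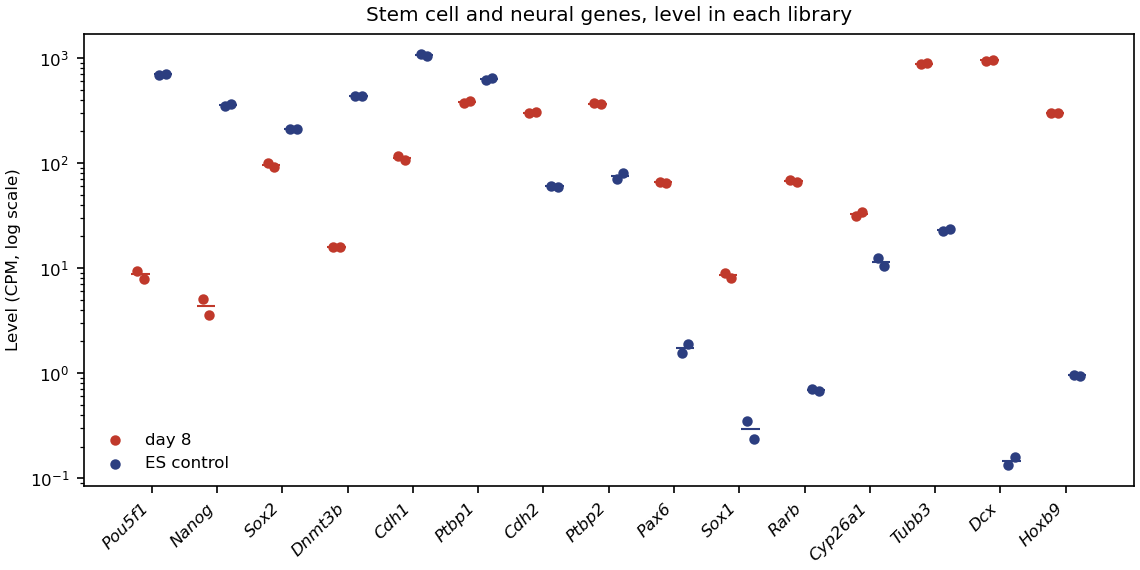
Level of 15 genes in each library, in CPM on a log axis, with day 8 in red to the left of ES control in blue. Points are libraries and bars are means of 2, and the groups are apart for every gene drawn, with Sox2, Ptbp1 and Cyp26a1 the closest and Dcx, at 946 CPM at day 8 and 0.145 CPM in ES control, the widest.

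Summed levels of cell type markers changed with the groups, and those of non-neural cell types moved in both directions. The 4 markers of undifferentiated cells (Pou5f1, Nanog, Zfp42, Esrrb) summed to 49.86 and 47.57 CPM at day 8, against 1439 and 1470 CPM in ES control. Markers of young neurons (Tubb3, Dcx, Elavl3, Stmn2) summed to 2544 and 2563 CPM at day 8, against 350.6 and 355.9 CPM in ES control, where Stmn2 alone stood at 318 CPM. Markers of neural progenitors (Pax6, Sox1, Nes, Hes5) summed to 421.7 and 417.9 CPM at day 8 and 185.2 and 178.7 CPM in ES control, where nearly all of it was Nes at 179.5 CPM. Mesenchyme markers (Col1a1, Col3a1, Pdgfra, Twist1) summed to 1349 and 1584 CPM at day 8, against 69.93 and 73.85 CPM in ES control, and the 5 endoderm markers (Sox17, Foxa2, Gata4, Gata6, Afp) to 332.3 and 336.2 CPM at day 8, against 11.96 and 13.28 CPM in ES control. Neural crest markers (Sox10, Foxd3, Tfap2a, Ngfr) summed to 144.2 and 133.2 CPM at day 8, against 14.15 and 13.43 CPM in ES control. Most of the day 8 sum was Ngfr, at 106 and 95.4 CPM, and Sox10 did not rise. The mesoderm sum (T, Tbx6, Meox1, Foxc2) went the other way. It was 7.389 and 9.311 CPM at day 8, against 189.6 and 179 CPM in ES control, mostly T at 186 and 174 CPM. Of the 4 mesoderm markers 2 rose and only T fell beyond 2-fold. The germ cell sum (Dazl, Ddx4) also fell, with 3.52 and 3.822 CPM at day 8, against 33.23 and 33.31 CPM in ES control. Markers of endothelium and blood (Kdr, Pecam1, Cdh5, Hbb-y, Ptprc) summed to 59.96 and 54.49 CPM at day 8 and 63.69 and 62.12 CPM in ES control. The ES control sum was mostly Pecam1, at 57.8 and 54.8 CPM. Of the 3 tested, 2 rose and 1 fell beyond 2-fold. The astrocyte markers Gfap and Aqp4 summed to 0.928 and 0.882 CPM at day 8 and 0.835 and 1.19 CPM in ES control. Muscle markers (Tnnt2, Myog, Myod1) summed to 14.47 and 11.53 CPM at day 8, against 0.4835 and 1.225 CPM in ES control. Nearly all of the day 8 sum was Tnnt2, at 14.43 and 11.47 CPM, and Myod1 had no count at day 8. The part of the non-neural cells in the gene differences below was not tested.

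Genes of the undifferentiated state fell together. Of 28 genes on the pluripotency list, all tested, 27 fell and 23 fell beyond 2-fold, with none higher and a median log2 fold change of -4.15, against 0.00 over all genes. Their summed level was 392.6 and 363.8 CPM at day 8 and 4350 and 4300 CPM in ES control. Nanog (chromosome 6, 122707489 to 122714633), a homeodomain factor at the centre of the network, had 5.03 and 3.59 CPM at day 8, against 352 and 364 CPM in ES control, 83.9-fold lower (log2 -6.39 ± 0.162; adjusted p = 6.08e-18). Tdgf1 (chromosome 9, 110939603 to 110946158), the co-receptor of the growth factor Nodal, fell furthest of those with enough counts, to 1.66 and 1.31 CPM at day 8, against 456 and 435 CPM in ES control (log2 -8.24 ± 0.16; adjusted p = 1.38e-19). Fgf4, the ES cell growth factor that pushes cells toward lineage entry, had 0.928 and 0.359 CPM at day 8, against 89.7 and 86.2 CPM in ES control (log2 -7.13 ± 0.211). Utf1, a chromatin factor of ES cells, averaged 1.21 CPM at day 8 and 77.5 CPM in ES control (log2 -6.02 ± 0.307). Zfp42, a zinc finger gene widely used as an ES cell marker, averaged 6.79 CPM at day 8 and 168 CPM in ES control (24.8-fold lower).

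The pluripotency list did not fall evenly. Sox2 (chromosome 3, 34650405 to 34652461), which serves ES cells and neural progenitors alike, kept 100.1 and 91.8 CPM at day 8, against 212 and 211 CPM in ES control, a 2.21-fold fall (log2 -1.14 ± 0.105; adjusted p = 3.65e-09) that did not pass the 2-fold test (adjusted p = 0.0793). Klf4, Mycn and Lin28b also fell by less than that test asks, with log2 fold changes of -0.36, -0.61 and -1.12. Tbx3, a T-box factor of naive cells, averaged 14.8 CPM at day 8 and 13.1 CPM in ES control and did not pass the test (log2 0.18 ± 0.157; adjusted p = 0.298). Esrrb, an orphan nuclear receptor that supports self-renewal, still had 28.3 and 29.6 CPM at day 8, against 227 and 233 CPM in ES control (log2 -2.99 ± 0.0966). The RNA-binding gene Lin28a, which blocks maturation of let-7 microRNAs, fell to 23.8 CPM at day 8, against 352 CPM in ES control (log2 -3.89 ± 0.191), a larger drop than the -1.12 of its relative Lin28b. For Dppa2, Dppa4 and Dppa5a between 29.1% and 38.6% of the 50-base stretches of their exons also occur in another annotated gene, so their counts are less certain.

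The promoter of Nanog carries the element through which Oct4 and Sox2 are known to act on it. The stretch below, of the GRCm38.p6 build from RefSeq, is shown because it joins these 3 genes of the network, and the capitals mark the joint Oct-Sox element, here on the strand opposite to the gene, 75 to 62 bases before the start.
Nanog, chr6:122707384-122707457, plus strand: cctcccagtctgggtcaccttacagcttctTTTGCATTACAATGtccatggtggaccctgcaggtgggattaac
The motif searched was CATTNT, any base and ATGCAAA, on both strands, in the window from 250 bases before to 50 after each start. Only 2 of 27025 genes (0.0074%) held it, Nanog, 83.9-fold lower at day 8, and Acsbg1, an acyl-CoA synthetase gene, whose log2 fold change was 2.51. The match describes these letters and says nothing of binding in these cells.

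Genes of the primed epiblast, the state just before germ layers form, and of the primitive streak were active in ES control, and many were low at day 8. Of 12 primed epiblast genes 9 fell and 2 rose beyond 2-fold, with a median log2 fold change of -4.98. Otx2, a homeobox gene of epiblast and forebrain, had 1.24 and 0.294 CPM at day 8, against 104 and 114 CPM in ES control. Nodal, the ligand that patterns the early embryo, had 0.774 and 0.359 CPM at day 8, against 58.8 and 61.6 CPM in ES control (log2 -6.76 ± 0.205; adjusted p = 8.68e-17). Its inhibitor Lefty2 averaged 1.18 CPM at day 8 and 99.5 CPM in ES control (log2 -6.44 ± 0.227). Fgf5, the classical epiblast marker, fell 36.6-fold (1.52 ± 0.0189 CPM at day 8 and 55.9 ± 1.41 CPM in ES control, SD, n = 2 each). The 2 that rose beyond 2-fold were Cdh2 and Foxd3, with roles in neural tissue and neural crest as well, and Sox3, of epiblast and neural progenitors, rose by less (log2 0.81 ± 0.191). Cdh2 encodes N-cadherin and is described with the adhesion genes. Foxd3 averaged 8.78 CPM at day 8 and 2.73 CPM in ES control (log2 1.68 ± 0.23), a call beyond 2-fold that the DESeq2 Wald test did not make (adjusted p = 0.0681).

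T (chromosome 17, 8434423 to 8442496), the Brachyury gene that defines the primitive streak, had the largest fall of any gene at 20 CPM or more, with 0.193 and 0.261 CPM at day 8, against 186 and 174 CPM in ES control (adjusted p = 1.13e-16). Its day 8 level rested on 5 and 8 counts. Mixl1, another streak factor, had 0.0774 and 0.0327 CPM at day 8, against 20.4 and 16.1 CPM in ES control, and Eomes, a T-box factor of streak and endoderm, 0.928 and 0.653 CPM at day 8, against 54.4 and 47.3 CPM in ES control (log2 -6.02 ± 0.184). Mesp1 and Msgn1, factors of nascent mesoderm, had no count at day 8, while ES control averaged 1.24 and 3.63 CPM, so they were at least 11.6-fold and at least 33.9-fold lower. The list of 20 tested streak and mesoderm genes was split, with 9 lower and 8 higher beyond 2-fold. The higher ones were factors of later mesoderm, among them Osr1, of intermediate and lateral mesoderm, at 17.9 and 17.1 CPM at day 8, against 0 and 0 CPM in ES control (at least 140-fold higher), Foxf1, of gut mesenchyme, at 28.7 and 29.1 CPM at day 8, against 0.264 and 0.118 CPM in ES control, and Hand2, of heart and limb, at 11.4 and 13.9 CPM at day 8, against 0.132 and 0.079 CPM in ES control.

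Genes of the retinoic acid pathway were mostly higher at day 8. Of 16 genes of retinoid metabolism and binding 9 rose and 1 fell beyond 2-fold, with a median log2 fold change of 2.73. Among the receptors, Rarb (chromosome 14, 16430839 to 16819156), a receptor gene that is itself switched on by retinoic acid, had 69.2 and 65.3 CPM at day 8, against 0.703 and 0.672 CPM in ES control, 97.2-fold higher (log2 6.60 ± 0.189; adjusted p = 3.74e-17), with 34.1% of its 50-base stretches shared with another annotated gene. Rara rose less, with 105 and 103 CPM at day 8, against 45.1 and 49.5 CPM in ES control (log2 1.14 ± 0.0923). Rarg fell to 14 and 13.5 CPM at day 8, against 54.5 and 61.4 CPM in ES control (log2 -2.08 ± 0.114; adjusted p = 9.7e-13). Of the retinoid X receptors, Rxra rose (log2 0.86 ± 0.0835), Rxrb fell (log2 -0.35 ± 0.0624) and Rxrg, under 2 CPM in both groups, did not pass. The 3 RAR genes moved apart from each other, which the sum over the 6 receptors, 308.8 and 301 CPM at day 8 and 211 and 221.7 CPM in ES control, does not show.

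Most enzymes and carriers of retinoids were higher at day 8. Cyp26a1 and Cyp26b1 encode the enzymes that clear retinoic acid. Cyp26a1 (chromosome 19, 37697798 to 37701536) had 31.6 and 34.1 CPM at day 8, against 12.4 and 10.4 CPM in ES control (log2 1.53 ± 0.175; adjusted p = 1.04e-07). Cyp26b1 had 25.6 and 19.1 CPM at day 8, against 0.22 and 0.751 CPM in ES control (adjusted p = 6.28e-09), while Cyp26c1 stayed under 0.5 CPM. Aldh1a2, the main enzyme that makes retinoic acid in the embryo, rose 24.1-fold (60.3 and 70.1 CPM at day 8, against 2.37 and 3 CPM in ES control; adjusted p = 1.89e-15). Aldh1a3 stayed under 1 CPM in both groups. The intracellular binding proteins Crabp1 and Crabp2 rose 7.18-fold and 6.2-fold, to 131 and 60.1 CPM at day 8, against 18.3 and 9.66 CPM in ES control. Stra6, the cell surface receptor that takes up retinol, had 26.1 and 25.5 CPM at day 8, against 0.176 and 0.593 CPM in ES control, and Rbp4, which carries retinol in blood, 71.1 and 69.5 CPM at day 8, against 2.46 and 2.17 CPM in ES control (log2 4.92 ± 0.172). The exception past the 2-fold test was Rdh11, a retinal reductase, at 40.6 CPM at day 8 and 90.7 CPM in ES control (log2 -1.16 ± 0.0772), a call that the DESeq2 Wald test and limma-voom did not make and that was lost without ES control replicate 1 or day 8 replicate 2.

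Rarb and Cyp26a1 are the textbook genes with a retinoic acid response element of the DR5 type in the promoter, 2 hexamers in the same direction with 5 bases between them. Both promoters held one, and the stretches are shown because both genes rose and both carry the element. Capitals mark the element.
Rarb, chr14:16575483-16575559, minus strand: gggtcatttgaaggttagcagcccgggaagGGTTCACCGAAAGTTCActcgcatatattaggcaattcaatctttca
Cyp26a1, chr19:37697746-37697807, plus strand: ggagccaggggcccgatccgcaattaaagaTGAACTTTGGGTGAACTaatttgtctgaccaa
Distances are counted from the RefSeq start of each gene, which for both genes lies inside the span given above. The element lay 53 to 37 bases before the start in Rarb, on the strand of the gene, and 32 to 16 bases before it in Cyp26a1, on the opposite strand. The DR5 consensus was searched on both strands of the window used for Nanog, and 31 of 27025 genes (0.115%) matched. Of these, 6 were tested here. Rarb, Cyp26a1 and Syndig1 were higher beyond 2-fold, Blvrb was lower, and Prokr2 and Tnfsf13b did not pass that test. Among all 12347 tested genes whose promoters were searched, 2247 were higher and 2023 lower beyond 2-fold, and the difference was not tested.

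The Hox genes were among the lists with the largest changes. Mammals carry 39 of them in 4 clusters, and within each cluster genes from the 3′ end (low numbers) act in the hindbrain and those toward the 5′ end in trunk and tail. All 39 were in the files and 35 passed the filter on low counts, a filter that a gene can pass through its day 8 level alone. Of the 35, 28 rose and 1 fell beyond 2-fold, with a median log2 fold change of 8.14, or 7.91 with genes that had no ES control count set at their lower bound. At day 8 the 39 genes summed to 1777 and 1778 CPM, against 11.38 and 9.167 CPM in ES control. Above 5 CPM stood 22 genes at day 8 and 0 in ES control. Hoxb5 (chromosome 11, 96303336 to 96306121), Hoxb6 (chromosome 11, 96292476 to 96301569), Hoxc5 and Hoxd3 had no count in ES control. At day 8 Hoxb5 had 112 and 113 CPM, Hoxb6 107 and 107 CPM, Hoxc5 74.8 and 78.6 CPM and Hoxd3 89.2 and 80.7 CPM, which put them at least 899-fold, at least 856-fold, at least 613-fold and at least 678-fold higher. The strand setting of the counting is not given in the sources used here, and Hoxd3 and Hoxb3 share 60.3% and 51.4% of their 50-base stretches with another annotated gene, so neighbours within a cluster may share reads.

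Levels at day 8 went with the position of a gene within its cluster. Summed over the clusters, paralogue group 1 reached 18.76 and 17.58 CPM at day 8 and 3.648 and 3.003 CPM in ES control. Groups 2 to 9 summed to between 74.24 CPM (group 7) and 332.1 CPM (group 3) in a day 8 library and under 2 CPM in any ES control library. Groups 10 to 13 stayed at 3.659 CPM or less in every library of both groups. All 24 members of groups 2 to 9 rose beyond 2-fold, against 3 of 8 tested members of groups 10 to 13 and 1 of 3 in group 1. Per kilobase of exon, Hoxb9 was the highest at 116 CPM per kb, followed by Hoxb8 at 85.5, Hoxb6 at 54.6 and Hoxa5 at 49 CPM per kb. The clusters differed in where high levels ended. Hoxb9 was the top gene of its cluster, whereas Hoxa9, Hoxc9 and Hoxd9 stood at 0.26, 0.67 and 0.799 CPM per kb at day 8. The Hoxb cluster held most of the signal, with 1153 and 1158 CPM summed at day 8, against 2.549 and 2.252 CPM in ES control. Hoxc13, at the far 5′ end, was the exception in direction, with 16 and 11 counts at day 8 and 40 and 49 in ES control (log2 -1.93 ± 0.414; adjusted p = 0.000276). Its fall was not called beyond 2-fold by the DESeq2 Wald test, by limma-voom or without day 8 replicate 2 (adjusted p = 0.179, 0.0587 and 0.132).

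**Figure D2:**
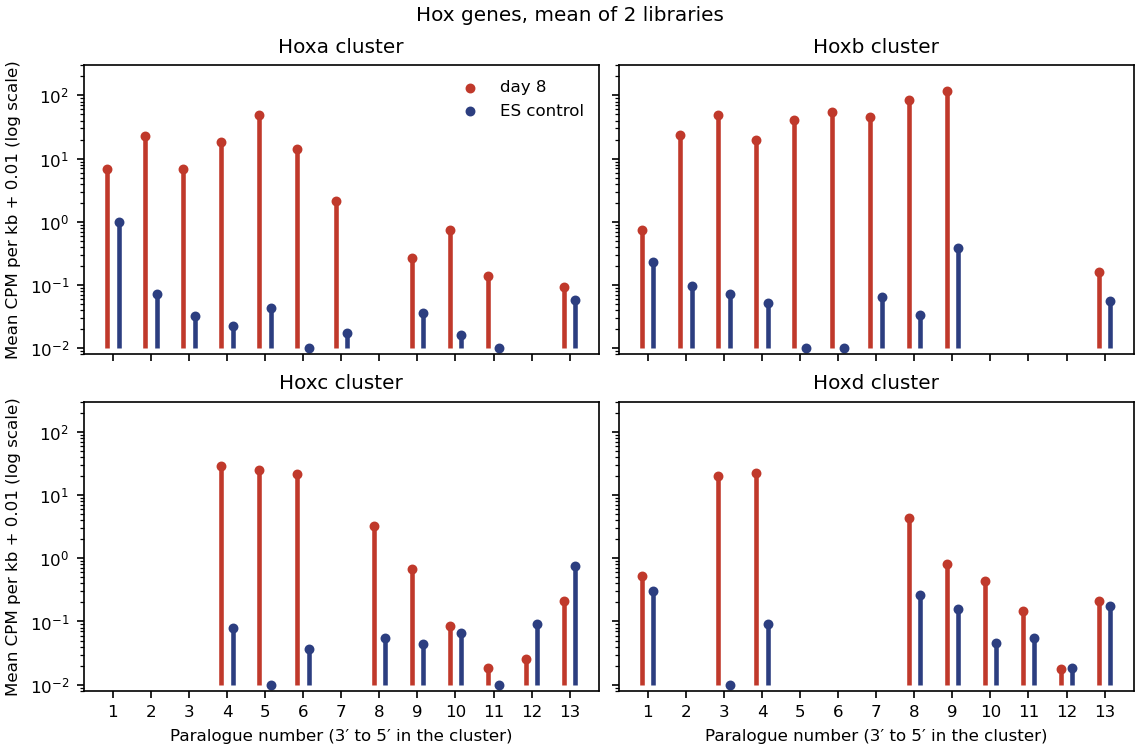
Mean level of each Hox gene over 2 libraries, in CPM per kilobase of exon plus 0.01 on a log axis, by paralogue number along each of the 4 clusters, day 8 in red left of ES control in blue; a point at 0.01 stands for no count. Genes numbered 2 to 9 stand high at day 8 in the Hoxb cluster, up to Hoxb9 at 116 CPM per kb, while in Hoxa, Hoxc and Hoxd the day 8 levels fall off from gene 7 or 8, and genes 10 to 13 are near the floor in both groups.

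Several partners of Hox proteins rose, whereas the Cdx activators of Hox genes fell or did not pass the test. Meis1, Meis2 and Pbx3 encode homeodomain proteins that bind DNA together with Hox proteins. Meis1 had 323 and 318 CPM at day 8, against 1.36 and 2.17 CPM in ES control (179-fold; log2 7.48 ± 0.161; adjusted p = 5.79e-19). Meis2 had 280.2 and 292 CPM at day 8, against 2.94 and 2.57 CPM in ES control (104-fold). Pbx3 had 195 and 199 CPM at day 8, against 38.1 and 33.7 CPM in ES control, a smaller rise from a level already present in the stem cells (5.5-fold). The Cdx genes, which activate trunk Hox genes in the embryo, did not rise with them at this day. Cdx4 had 2 and 0 counts at day 8 and 77 and 130 in ES control. Cdx1 had 0 and 3 counts at day 8 and 10 and 30 in ES control, and both genes were lower beyond 2-fold. For Cdx1 that call was lost without ES control replicate 2 (adjusted p = 0.091 in edgeR's 2-fold test). Cdx2 averaged 4.01 CPM at day 8 and 2.82 CPM in ES control (adjusted p = 0.105). In all, 5 of these 10 genes rose and 2 fell beyond 2-fold.

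Most neural progenitor genes rose. Of 20 on the list 15 rose and 0 fell beyond 2-fold, with a median log2 fold change of 1.77. Pax6 (chromosome 2, 105668900 to 105697364), a homeobox gene of neural progenitors, had 66 and 64.8 CPM at day 8, against 1.54 and 1.9 CPM in ES control, 37.8-fold higher (log2 5.24 ± 0.2; adjusted p = 2.98e-15). Sox1, the earliest marker of neural plate in the mouse, had 9.01 and 8.1 CPM at day 8, against 0.352 and 0.237 CPM in ES control. Fabp7, a fatty acid binding protein of radial glia, had 379.8 and 363 CPM at day 8, against 2.24 and 1.98 CPM in ES control (176-fold; adjusted p = 1.04e-20), and Sox9, which marks progenitors able to form glia, 81.4 and 78.9 CPM at day 8, against 1.54 and 2.33 CPM in ES control (40.9-fold). Sox11 and Sox4, of cells leaving the progenitor state, averaged 911 CPM at day 8 and 90.2 CPM in ES control for Sox11 and 229 CPM at day 8 and 42.8 CPM in ES control for Sox4. Genes that ES cells share with progenitors changed little. Nes, the intermediate filament gene nestin, averaged 302 CPM at day 8 and 179.5 CPM in ES control (log2 0.75 ± 0.0992), and Prom1 and Slc1a3 did not pass the test (adjusted p = 0.371 and adjusted p = 0.304).

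Proneural transcription factors, which commit progenitors to become neurons, mostly rose, and many were near 0 CPM in ES control. Of 19 genes 17 rose and 0 fell beyond 2-fold, with a median log2 fold change of 8.53, or 7.98 with genes absent from ES control set at their bound. Neurog2 had 34.7 and 30.5 CPM at day 8, against 0.0879 and 0.079 CPM in ES control, and its ES control values rested on 4 counts or fewer. Further along the path from progenitor to neuron, Neurod4 averaged 55.1 CPM at day 8 and 0.0417 CPM in ES control, Ebf3 104 CPM at day 8 and 0.0835 CPM in ES control, Nhlh2 127 CPM at day 8 and 0.174 CPM in ES control, and Myt1, a zinc finger factor that holds back progenitor genes, 205 CPM at day 8 and 0.0659 CPM in ES control. Atoh1, the proneural gene of the dorsal edge of hindbrain and cord, did not pass the test, with 1 and 2 counts at day 8 and 4 and 1 in ES control. Neurod1, a factor of neurons and of endocrine cells, rose without passing the 2-fold test (13.4 and 14.1 CPM at day 8, against 7.43 and 8.38 CPM in ES control; log2 0.79 ± 0.21). The list also holds genes well above 0 in ES control, and its summed level was 1098 and 1063 CPM at day 8, against 98.06 and 96.02 CPM in ES control. The Id genes, whose products block proneural factors by binding their partners, rose as well. All 4 passed the test, with Id4 at 65.4 CPM at day 8 and 3.65 CPM in ES control (log2 4.17 ± 0.151) and Id1 changed least (log2 1.16 ± 0.149).

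Notch signalling keeps part of the progenitors from differentiating, and its genes changed in both directions. Dll1, a ligand made by newborn neurons, had 113 and 98.8 CPM at day 8, against 15.4 and 14.3 CPM in ES control (7.11-fold; adjusted p = 3.2e-12). Hes5, a direct Notch target that represses proneural genes, had 44.6 and 42.6 CPM at day 8, against 0.396 and 0.395 CPM in ES control, and Heyl, another target, 16 and 11.6 CPM at day 8, against 0.0879 and 0.0395 CPM in ES control. Hes1, also a Notch target, went the other way, at 21.5 and 24.3 CPM at day 8, against 49.2 and 49.4 CPM in ES control (log2 -1.10 ± 0.099; adjusted p = 2.67e-09), a fall that did not pass the 2-fold test (adjusted p = 0.137). Of the receptors, Notch1 rose (log2 0.40 ± 0.0877), Notch2 did not pass (adjusted p = 0.0974) and Notch3 fell to 133 and 119.8 CPM at day 8, against 415 and 428 CPM in ES control (log2 -1.74 ± 0.0903; adjusted p = 4.18e-13). In all, 9 of 19 genes rose and 2 fell beyond 2-fold, against 19.0% and 16.7% of all genes tested. The 2 that fell were Notch3 and the ligand gene Jag2, at 20.1 CPM at day 8 and 68 CPM in ES control (log2 -1.76 ± 0.156).

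Genes of the neuronal cytoskeleton and of neuronal RNA-binding proteins rose without exception. All 25 on the list passed the test, 23 beyond 2-fold, with a median log2 fold change of 4.09, and their summed level was 8447 and 8226 CPM at day 8, against 1082 and 1092 CPM in ES control. Mapt, which encodes tau, had 334 and 323 CPM at day 8, against 4.44 and 4.5 CPM in ES control (73.4-fold; adjusted p = 1.04e-20), and Map2, the microtubule protein of dendrites, 649 and 676 CPM at day 8, against 32.7 and 31.8 CPM in ES control (20.6-fold). Elavl4, an RNA-binding protein of neurons, averaged 249 CPM at day 8 and 3.13 CPM in ES control (79.1-fold). Neurofilament genes differed, with Ina and Nefl at 304 and 318 CPM at day 8 and 14.3 and 43.3 CPM in ES control. Nefh, the neurofilament of mature axons, was close to its ES control level (9.86 and 9.93 CPM at day 8, against 7.82 and 6.84 CPM in ES control; log2 0.44 ± 0.162), a call lost when any library but ES control replicate 1 was left out. Stmn2, often used as a neuron marker, was high before differentiation, at 499 and 495 CPM at day 8, against 316 and 321 CPM in ES control (log2 0.64 ± 0.0554).

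Most synaptic genes rose too. Of 25 genes 19 rose and 1 fell beyond 2-fold, with a median log2 fold change of 3.18 and summed levels of 1058 and 1032 CPM at day 8 and 211.7 and 211.1 CPM in ES control. Gria2 (chromosome 3, 80681450 to 80802835), a subunit of AMPA glutamate receptors, had the largest fitted rise of any gene at 20 CPM or more, with 124 and 120.1 CPM at day 8 and no count in ES control, at least 974-fold higher (adjusted p = 1.6e-17). Genes of inhibitory transmission were present, with Gad2, an enzyme that makes GABA, at 48 and 47.6 CPM at day 8, against 0.615 and 0.198 CPM in ES control, and Slc32a1, which loads GABA into vesicles, at 21.7 and 19.7 CPM at day 8, against 0.483 and 0.672 CPM in ES control. For glutamate, Slc17a6 (the vesicle transporter VGLUT2) had 8.32 and 6.34 CPM at day 8, against 0 and 0.0395 CPM in ES control, while Slc17a7 (VGLUT1) was the gene that fell beyond 2-fold, at 0.794 CPM at day 8 and 2.91 CPM in ES control (log2 -1.88 ± 0.341), a call not made by the DESeq2 Wald test or without day 8 replicate 2. Chat and Slc18a3 of acetylcholine synthesis and loading averaged 1.85 and 4.28 CPM at day 8 and 0.277 and 0.578 CPM in ES control. Grin1, the obligate subunit of NMDA receptors, fell (5.34 and 4.28 CPM at day 8, against 10.8 and 11.5 CPM in ES control; log2 -1.22 ± 0.145), although the fall did not pass the 2-fold test (adjusted p = 0.0613).

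Regional genes of the brain changed unevenly. Of 19 tested genes of forebrain and midbrain 12 rose and 3 fell beyond 2-fold, but most of those that rose stayed low. Six3, of the forebrain, averaged 0.485 CPM at day 8 and 0.0198 CPM in ES control, Emx1 had no count at day 8, and Nkx2-1 stayed under 0.1 CPM. The 2 with the most counts were Pax2, which also serves hindbrain and spinal interneurons and the kidney, at 62.6 and 60.4 CPM at day 8 and no count in ES control (at least 491-fold higher), and Pax8, of the same subfamily, at 38.3 and 42.6 CPM at day 8, against 1.36 and 1.62 CPM in ES control (26.9-fold). Over the alternatives the count of rises on this list ranged from 9 to 12. Genes that pattern hindbrain and spinal cord across the dorsal to ventral axis mostly rose. Of 28, 22 rose and 0 fell beyond 2-fold, with summed levels of 427.4 and 391.1 CPM at day 8 and 49.62 and 46.71 CPM in ES control.

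The dorsoventral list held genes of dorsal, intermediate and ventral cord. Pax3, of dorsal progenitors, had 57.2 and 51 CPM at day 8, against 0 and 0.237 CPM in ES control, and Dbx1, of intermediate progenitors, 36.3 and 29.2 CPM at day 8 and no count in ES control (at least 261-fold higher). Lhx1 and Lhx5, factors of several interneuron classes, averaged 130.3 CPM at day 8 and 20.4 CPM in ES control for Lhx1 and 21.3 CPM at day 8 and 0.0198 CPM in ES control for Lhx5. Among ventral genes, Shh, the ventral signal of floor plate and notochord, had 9.05 and 6.83 CPM at day 8, against 0.044 and 0.198 CPM in ES control, and the motor neuron genes Isl1 and Mnx1 averaged 33.5 and 3.03 CPM at day 8 and 1.68 and 0.547 CPM in ES control. Olig2, of motor neuron and oligodendrocyte progenitors, averaged 1.64 CPM at day 8 and had no count in ES control. Nkx2-2, of the most ventral progenitors, stayed under 1 CPM. Egr2, of hindbrain rhombomeres, did not pass (11 and 17 counts at day 8 and 11 and 9 in ES control).

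Zinc finger genes of the Zic family changed in both directions. Zic1, of dorsal neural tissue and cerebellum, had 85.9 and 70 CPM at day 8, against 0.0879 and 0.0395 CPM in ES control, and Zic4, its neighbour in the genome, 13.9 and 9.28 CPM at day 8, against 0.044 and 0.0395 CPM in ES control. Zic2 and Zic5 fell, with log2 fold changes of -2.41 and -3.36, and all of these changes passed the 2-fold test.

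Secreted signals changed member by member. FGF ligands of ES cells and streak fell, with Fgf8 at 0.0774 and 0.098 CPM at day 8, against 29.7 and 32.6 CPM in ES control, Fgf4 as above and Fgf17 at 0.193 and 0.196 CPM at day 8, against 23.5 and 22.3 CPM in ES control, and so did genes that FGF signalling induces, with Etv5 at 17.2 CPM at day 8 and 276 CPM in ES control (log2 -3.99 ± 0.0936), Spry4 at -1.80 and Dusp6 at -0.74 on the log2 scale. The receptors Fgfr2 and Fgfr3, of progenitors and glia, rose 4.34-fold and 17.1-fold. Fgfr1 fell (log2 -0.63 ± 0.06). In all, 6 of 21 FGF genes rose and 7 fell beyond 2-fold, against 19.0% and 16.7% of all genes tested. Of 23 Wnt ligands, inhibitors and targets, 11 rose and 2 fell beyond 2-fold, against the same 19.0% and 16.7%. The 2 that fell were ligands of the streak, Wnt3 at 7.08 and 5.88 CPM at day 8, against 45.9 and 45.9 CPM in ES control (log2 -2.83 ± 0.144) and Wnt8a at 0.193 and 0.131 CPM at day 8, against 24.2 and 24.7 CPM in ES control, and those that rose included Wnt5a (4.95-fold) and Wnt7b (6.92-fold) and the secreted inhibitors Frzb (22.6-fold) and Sfrp1 (4.54-fold). Axin2, a general target of Wnt signalling, averaged 54.3 CPM at day 8 and 54 CPM in ES control and did not pass (log2 0.01 ± 0.0827; adjusted p = 0.92).

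Hedgehog genes were higher at day 8, although ligand levels were small. Of 14 genes 6 rose and 0 fell beyond 2-fold, against 19.0% and 16.7% of all genes tested. Hhip, an inhibitor that Hedgehog signalling induces, had 27.5 and 31.5 CPM at day 8, against 0.44 and 0.553 CPM in ES control. Gli1 and Ptch1, which report active signalling, rose 2.1-fold and 2.04-fold, both changes that did not pass the 2-fold test. Gli1 averaged 51 CPM at day 8 and 24.3 CPM in ES control. Boc and Gas1, co-receptors at the cell surface, rose 10.8-fold and 10.9-fold. Cdon, their relative, had 77.6 and 82.5 CPM at day 8, against 97.8 and 97.8 CPM in ES control (log2 -0.29 ± 0.12), a call lost in limma-voom and without any 1 of the 4 libraries.

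Genes of non-neural cell types were higher at day 8 as well. Of 20 endoderm genes 16 rose and 1 fell beyond 2-fold, with a median log2 fold change of 3.8. Afp (chromosome 5, 90490737 to 90508907), the alpha-fetoprotein of yolk sac and fetal liver, had 192 and 192 CPM at day 8, against 0 and 0.0395 CPM in ES control, and Ttr, a thyroid hormone carrier made by the same tissues, 30.1 and 30.9 CPM at day 8 and no count in ES control (at least 244-fold higher). Gata4, a factor of endoderm and heart, had 84.7 and 80.7 CPM at day 8, against 4.79 and 6.01 CPM in ES control (15.2-fold; adjusted p = 7.19e-18). Cubn, an uptake receptor of visceral endoderm, averaged 58.4 CPM at day 8 and 2.48 CPM in ES control (23.4-fold). Alb, the albumin gene of later liver, stayed under 0.5 CPM. Krt19, a keratin, was the member that fell beyond 2-fold, at 50.8 CPM at day 8 and 238 CPM in ES control (log2 -2.23 ± 0.151). Endoderm genes of the liver and yolk sac type stood beside neuronal genes in the same libraries.

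Mesenchyme and matrix genes rose in 13 of 18 cases and 1 fell beyond 2-fold, with a median log2 fold change of 2.46. Col3a1 (chromosome 1, 45311538 to 45349706), a collagen of loose connective tissue, had 906 and 1084 CPM at day 8, against 4.66 and 4.7 CPM in ES control (212-fold; adjusted p = 4.46e-19). Pdgfra, a growth factor receptor of mesenchyme and of oligodendrocyte precursors, had 230.4 and 243 CPM at day 8, against 11.2 and 13 CPM in ES control (19.5-fold), and the small proteoglycan gene Dcn 44.9 and 57.8 CPM at day 8, against 0.176 and 0.435 CPM in ES control. The member that fell beyond 2-fold was Fn1, fibronectin, at 674 CPM at day 8 and 1889 CPM in ES control (log2 -1.49 ± 0.082). Acta2, the smooth muscle actin gene, rose 8.55-fold (262 and 326 CPM at day 8, against 34.4 and 34.5 CPM in ES control), whereas Myod1, Myf5 and Myog of skeletal muscle stayed under 0.1 CPM at day 8. In the muscle list of 12 tested genes 4 rose and 2 fell beyond 2-fold, against 19.0% and 16.7% of all genes tested.

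Neural crest and vascular genes were mixed. Of 13 crest genes 7 rose and 3 fell beyond 2-fold, against 19.0% and 16.7% of all genes tested. Tfap2b (chromosome 1, 19208914 to 19238576), of crest and of some spinal interneurons, had 81.9 and 77 CPM at day 8 and no count in ES control, at least 635-fold higher (adjusted p = 2.42e-16). Ednrb, an endothelin receptor of crest cells and radial glia, had 189.6 and 182 CPM at day 8, against 0.044 and 0 CPM in ES control. Sox10, which defines migrating crest and its glia, had 2.63 and 1.67 CPM at day 8, against 3.69 and 4.11 CPM in ES control and did not pass (adjusted p = 0.0566), although it did in 5 of the alternatives. The low-affinity neurotrophin receptor gene Ngfr rose 21.4-fold (106 and 95.4 CPM at day 8, against 5.49 and 3.99 CPM in ES control). Of 14 tested genes of endothelium and blood 8 rose and 3 fell beyond 2-fold, against the same 19.0% and 16.7%. Cdh5, the cadherin of endothelial junctions, had 20.4 and 17.4 CPM at day 8, against 0.396 and 0.198 CPM in ES control. Pecam1, which ES cells also express, fell (22.8 and 17.9 CPM at day 8, against 57.8 and 54.8 CPM in ES control; log2 -1.47 ± 0.182; not beyond 2-fold by the DESeq2 Wald test or without day 8 replicate 2), and the leukocyte gene Ptprc and embryonic globin Hbb-y stayed under 1 CPM.

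Glial genes rose only in part. Slc1a2, a glutamate transporter of astrocytes and radial glia, had 92.7 and 91.2 CPM at day 8, against 0.615 and 0.711 CPM in ES control, and Nfia and Nfib, factors that start gliogenesis, averaged 50.7 CPM at day 8 and 1.16 CPM in ES control for Nfia and 123 CPM at day 8 and 2.45 CPM in ES control for Nfib. Gfap averaged 0.762 CPM at day 8 and 0.969 CPM in ES control (adjusted p = 0.658), and Apoe and Gja1, expressed in ES cells, fell with log2 fold changes of -2.70 and -1.61. Of 14 astrocyte genes 6 rose and 3 fell beyond 2-fold, with a median log2 fold change of 2.88, or 0.87 with S100b, absent from ES control, at its bound. Of 12 oligodendrocyte genes 4 rose (1 of the 4 being Pdgfra) and 2 fell beyond 2-fold, against 19.0% and 16.7% of all genes tested. Of 6 tested microglia and leukocyte genes 2 rose and 3 fell beyond 2-fold, and Cx3cr1, Trem2 and C1qa had no count in any of the 4 libraries.

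**Figure D3:**
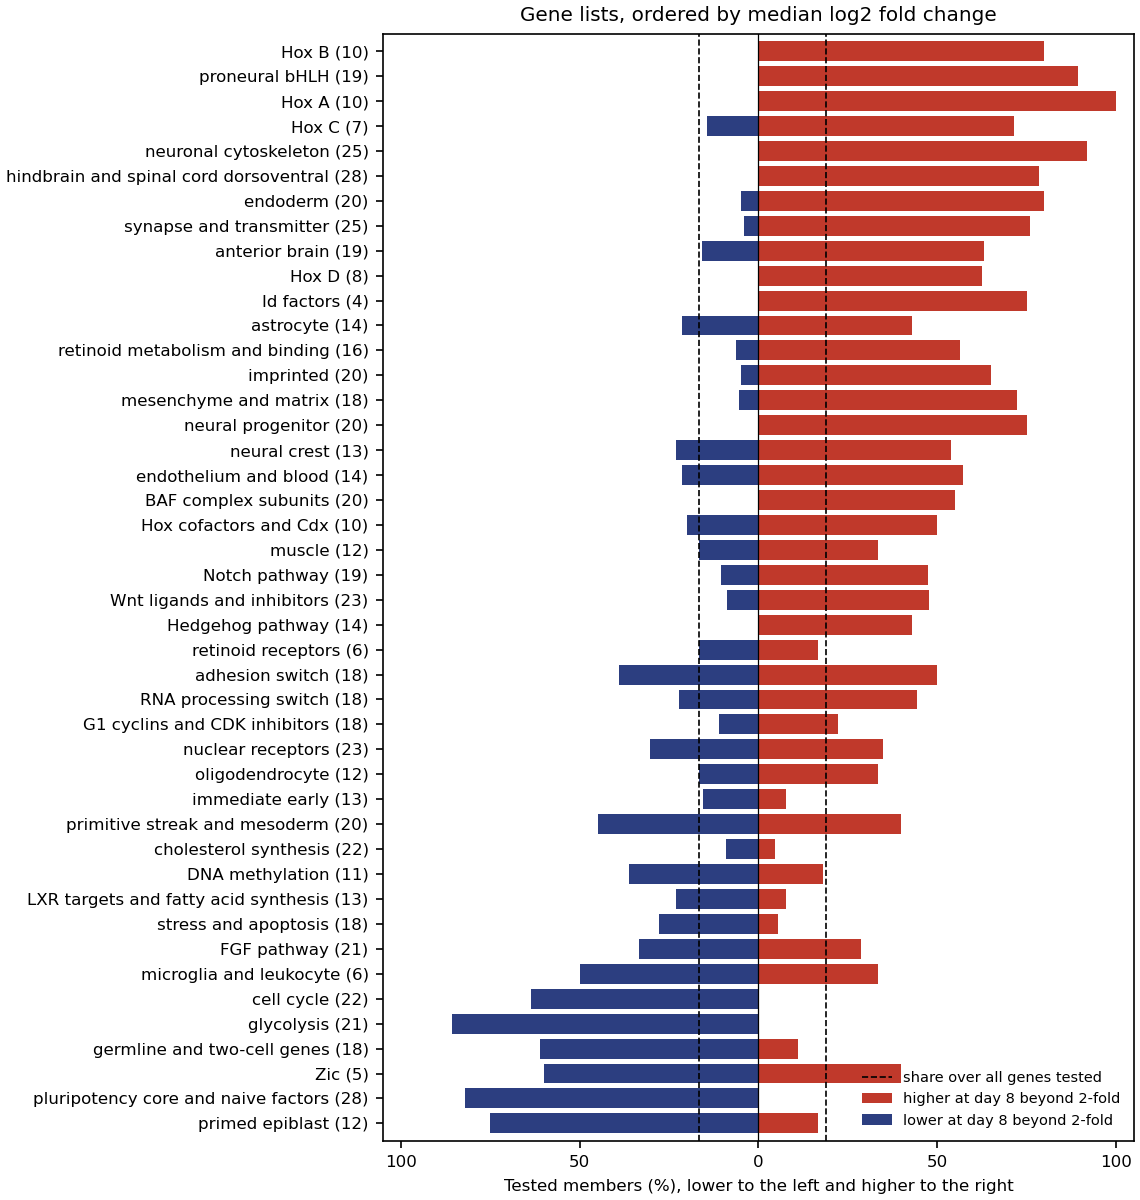
Share of the tested members of each gene list that changed beyond 2-fold, higher at day 8 to the right in red and lower at day 8 to the left in blue, in percent, ordered by the list's median log2 fold change, with the number tested in brackets. Dashed lines mark the shares over all genes tested, 19.0% higher and 16.7% lower; Hox, proneural and neuronal cytoskeleton lists lie far to the right and the pluripotency, primed epiblast and glycolysis lists far to the left.

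Adhesion genes of epithelia were lower at day 8, and those of neural tissue and mesenchyme were higher. Which cells carried these changes was not tested. Cdh1 (chromosome 8, 106603351 to 106670246), which encodes E-cadherin, had 116 and 108 CPM at day 8, against 1083 and 1035 CPM in ES control, 9.49-fold lower (log2 -3.25 ± 0.0912; adjusted p = 2.76e-17), and Cdh2 (chromosome 18, 16588877 to 16809246), which encodes N-cadherin, 298 and 306 CPM at day 8, against 61 and 59 CPM in ES control, 5.03-fold higher (log2 2.33 ± 0.077; adjusted p = 3.19e-16). Cdh11, a cadherin of mesenchyme and neural tissue, had 308 and 351 CPM at day 8, against 4.39 and 2.96 CPM in ES control (90.1-fold), and Ncam1, the neural cell adhesion molecule, 275 and 279.8 CPM at day 8, against 11.2 and 13.2 CPM in ES control (22.7-fold). Zeb1 and Zeb2, repressors of Cdh1, rose 17.3-fold and 9.79-fold. Epcam, claudin genes and Esrp1, a splicing factor of epithelia, fell, with Epcam at 58.7 CPM at day 8 and 355 CPM in ES control (log2 -2.60 ± 0.0696) and Esrp1 at 28.2 CPM at day 8 and 181 CPM in ES control (log2 -2.69 ± 0.0976). All 18 genes on the list passed the test, 9 in each direction, and 9 rose and 7 fell beyond 2-fold.

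Several RNA-binding proteins of the neural splicing switch changed in the direction known from neurons. On the whole list of 18 genes of RNA processing 8 rose and 4 fell beyond 2-fold, against 19.0% and 16.7% of all genes tested. Its median log2 fold change was 0.46, and 2 of the 18 passed neither test. Ptbp1 (chromosome 10, 79854427 to 79864771), which represses neural exons in other cells, fell by less than 2-fold, with 371 and 387 CPM at day 8, against 623 and 643 CPM in ES control (log2 -0.74 ± 0.0621; adjusted p = 8.93e-10), and Ptbp2 (chromosome 3, 119718742 to 119784466), its neural relative, rose 4.9-fold, with 370.2 and 364 CPM at day 8, against 70.1 and 79.6 CPM in ES control (log2 2.29 ± 0.0745; adjusted p = 2.48e-16). The neural splicing factors Srrm4, Nova1 and Celf3 had larger changes, at 103 and 95.8 CPM at day 8, against 2.33 and 1.46 CPM in ES control for Srrm4 (52.8-fold), 328 and 347 CPM at day 8, against 9.36 and 9.6 CPM in ES control for Nova1 (35.5-fold) and 134 and 130.1 CPM at day 8, against 0.791 and 1.3 CPM in ES control for Celf3. Rest, the repressor of neuronal genes outside the nervous system, fell to 40.4 and 40.4 CPM at day 8, against 121 and 126 CPM in ES control (log2 -1.61 ± 0.082; adjusted p = 3.07e-13). The binding sequence of the Rest protein, called RE1, was found in the promoters of 14 of 27025 genes by an exact search in the same window (0.0518%). Of the 12 such genes tested 6 were higher and 3 lower beyond 2-fold. Of all 12347 tested genes whose promoters were searched, 2247 were higher and 2023 lower beyond 2-fold. Whether genes with RE1 differ from that background was not tested. Lhx3 and Fbll1 had the largest fitted rises among them and Fam163b the largest fall, with a log2 fold change of -2.51.

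Subunits of the BAF chromatin remodelling complex changed in the direction known from neurons. Of 20 genes 11 rose and 0 fell beyond 2-fold. Actl6b, the neuron-specific actin-like subunit, had 30.1 and 29.6 CPM at day 8, against 0.0879 and 0 CPM in ES control. Actl6a, its counterpart in dividing cells, fell slightly (146 and 142 CPM at day 8, against 183 and 184 CPM in ES control; log2 -0.35 ± 0.0593). Likewise Ss18l1 rose 4.82-fold and Ss18 fell (log2 -0.87 ± 0.0573). Dpf1 rose 9.54-fold and Phf10 fell (log2 -0.53 ± 0.054). Smarca2, an ATPase subunit, had 82.1 and 78.1 CPM at day 8, against 8.13 and 7.47 CPM in ES control (10.3-fold), while Smarca4, the other ATPase, changed less (log2 0.41 ± 0.0517). In each of these 3 exchanges the subunit of dividing cells was still present at day 8, at 144, 94.8 and 77.7 CPM for Actl6a, Ss18 and Phf10.

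Genes of DNA methylation were split between enzymes. Dnmt3b (chromosome 2, 153649450 to 153687730), the methyltransferase of epiblast and ES cells, had 15.9 and 15.8 CPM at day 8, against 432 and 431 CPM in ES control, 27.2-fold lower (log2 -4.77 ± 0.151; adjusted p = 1.61e-16). Its cofactor Dnmt3l fell 27.9-fold. Dnmt3a, the other methyltransferase that sets new marks, rose (270.3 and 280.1 CPM at day 8, against 161 and 161 CPM in ES control; log2 0.77 ± 0.0566). Among the Tet genes, whose enzymes oxidise methylated cytosine, Tet1 fell to 80.3 CPM at day 8, against 324 CPM in ES control (log2 -2.01 ± 0.087). Tet3 rose to 209.5 CPM at day 8, against 22.2 CPM in ES control (log2 3.24 ± 0.0823).

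Cell cycle genes fell by moderate amounts. Of 22 genes of replication and mitosis 21 fell, 14 beyond 2-fold, with a median log2 fold change of -1.36. Ccnb2, a mitotic cyclin, had 62.5 and 56.2 CPM at day 8, against 262 and 255 CPM in ES control (log2 -2.12 ± 0.0814; adjusted p = 3.23e-15), and the mitotic kinase gene Plk1 63.2 and 67.3 CPM at day 8, against 266 and 278 CPM in ES control (log2 -2.06 ± 0.144). Mki67, the proliferation marker, fell less, to 439 and 428 CPM at day 8, against 616 and 776 CPM in ES control (log2 -0.68 ± 0.105), and Tyms, thymidylate synthase, was the member that rose (log2 0.47 ± 0.0857). Summed levels were 3775 and 3707 CPM at day 8 and 8661 and 8933 CPM in ES control, so cell cycle genes remained abundant at day 8. Among regulators of entry into the cycle, Ccnd2 had 442 and 428 CPM at day 8, against 24.1 and 24.3 CPM in ES control (18-fold; adjusted p = 2.22e-20) and Ccne1 47.2 and 48.6 CPM at day 8, against 153 and 155 CPM in ES control (log2 -1.69 ± 0.0735). Cdkn1c, which encodes the cell cycle inhibitor p57, rose 6.56-fold (280.2 and 286 CPM at day 8, against 40.9 and 45.4 CPM in ES control), whereas Cdkn1a and Cdkn1b, of p21 and p27, fell slightly, with log2 fold changes of -0.57 and -0.24, and the call for Cdkn1b was lost without ES control replicate 2 or day 8 replicate 2.

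Glycolysis genes fell as a block. All 21 fell, 18 beyond 2-fold, with a median log2 fold change of -2.01 and summed levels of 4388 and 3760 CPM at day 8, against 20190 and 20810 CPM in ES control. Slc2a3 (chromosome 6, 122727809 to 122801640), a high-affinity glucose transporter, was among the most abundant transcripts of ES control and had 189 and 164 CPM at day 8, against 4319 and 4398 CPM in ES control, 24.7-fold lower (log2 -4.62 ± 0.143; adjusted p = 1.15e-16). Slc2a1, the other main glucose transporter, had 178 and 154 CPM at day 8, against 1575 and 1634 CPM in ES control (log2 -3.27 ± 0.145). Ldha, which turns pyruvate into lactate, had 448 and 346 CPM at day 8, against 1601 and 1584 CPM in ES control (log2 -2.01 ± 0.0932), and Slc16a3, which exports lactate, 86 and 53.6 CPM at day 8, against 436 and 461 CPM in ES control (log2 -2.69 ± 0.153). Hk1, Pfkm and Eno2, the forms used by neurons and muscle, fell least, with log2 fold changes of -0.49, -0.29 and -0.32, and the call for Eno2 was lost without ES control replicate 2 or day 8 replicate 2. Bnip3, which low oxygen induces, also fell (log2 -1.69 ± 0.122). Vegfa, another gene induced by low oxygen, rose (log2 0.67 ± 0.0887). For Pgk1, Pgam1, Pkm and Gapdh between 25.1% and 53.9% of the 50-base stretches occur in another annotated gene.

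**Figure D4:**
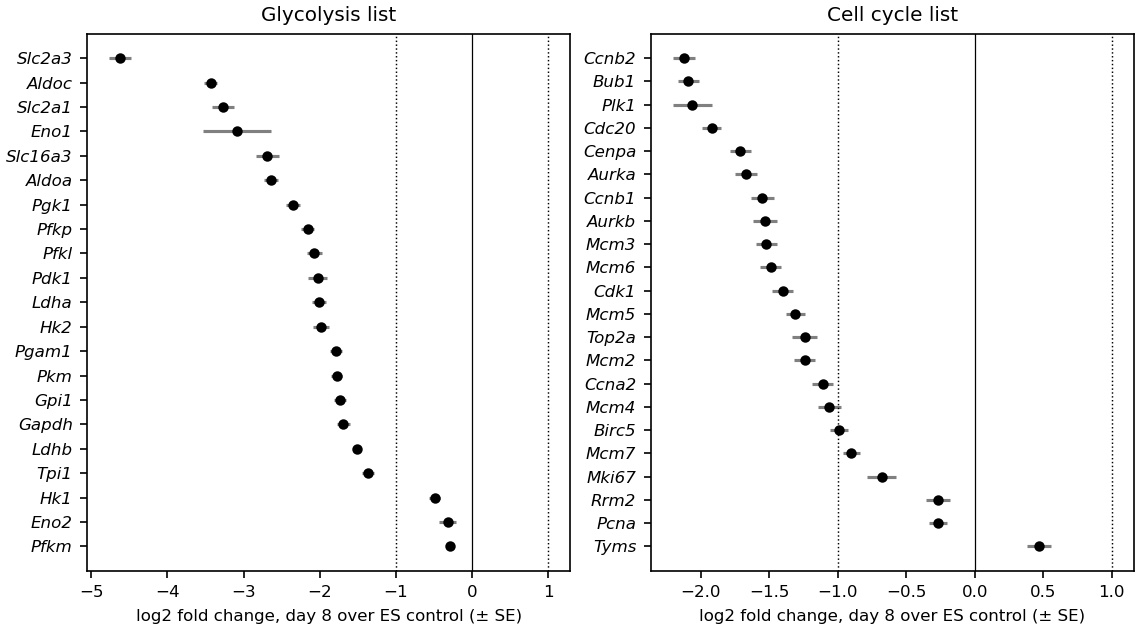
Log2 fold change of day 8 over ES control for each gene of the glycolysis list (left) and cell cycle list (right), with bars for the standard error of the fit and dotted lines at 2-fold. All 21 glycolysis genes lie below 0, down to -4.62 for Slc2a3, and 21 of 22 cell cycle genes lie below 0, with Tyms above.

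Imprinted genes of growth were among the most abundant transcripts that rose. Of 20 genes 13 rose and 1 fell beyond 2-fold, with a median log2 fold change of 2.51. Igf2, a fetal growth factor, had 2554 and 2718 CPM at day 8, against 162 and 148 CPM in ES control (17-fold; adjusted p = 4.47e-19), with 62.1% of its 50-base stretches shared with another annotated gene. H19, the noncoding RNA beside it, had 461 and 509.9 CPM at day 8, against 22.8 and 22.6 CPM in ES control (21.4-fold). Dlk1, a Notch-like surface protein, rose 26.2-fold and Meg3, from the same imprinted region, 2.96-fold. Phlda2, of extraembryonic tissue, was the gene that fell beyond 2-fold, with 1.28 and 1.37 CPM at day 8, against 31.4 and 38.2 CPM in ES control (log2 -4.71 ± 0.283).

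Some of the largest changes lay outside these lists. Among genes at 20 CPM or more in the higher group, Dnm3os, a noncoding RNA that carries microRNAs of mesenchyme, had 70.8 and 78.6 CPM at day 8 and no count in ES control (at least 597-fold higher), and St18, a zinc finger gene of the Myt1 family, 64.4 and 64.7 CPM at day 8 and no count in ES control (at least 515-fold higher). Among the largest falls, Trh, the gene of thyrotropin-releasing hormone, had 0.812 and 1.01 CPM at day 8, against 323 and 291 CPM in ES control (log2 -8.37 ± 0.205; adjusted p = 3.69e-18), Dnahc8, a dynein heavy chain gene, 0.851 and 0.653 CPM at day 8, against 204 and 203 CPM in ES control (log2 -8.08 ± 0.112), and Vrtn, a gene linked to vertebra number in pigs, 0.232 and 0.0327 CPM at day 8, against 34.1 and 33.1 CPM in ES control. The others were T, Fgf8 and Tdgf1, given above, Clca6, with 0.0387 and 0.0653 CPM at day 8, against 21.7 and 18.9 CPM in ES control and 41% of shared 50-base stretches, and 2410007B07Rik, with 0.387 and 0.098 CPM at day 8, against 53.5 and 50.1 CPM in ES control. In all, 166 genes had no count in either ES control library and 1 CPM or more at day 8, against 39 with the reverse.

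Where day 8 stood in the longer course differed by gene. The later libraries without added ligand are set beside the others without a test, since they share the day 8 libraries, and the day 17 files, unlike those of the other 3 groups, list reads aligned more than once apart from the rest, whose part in the levels there was not tested. The Hox genes summed to 11.38 and 9.167 CPM in ES control, 1777 and 1778 CPM at day 8 and 615.4 and 668.8 CPM at day 16. Neurog2 averaged 0.0835 CPM in ES control, 32.6 CPM at day 8, 3.56 CPM at day 16 and 3.3 CPM at day 17. Ebf3, another gene of the proneural list, averaged 0.0835 CPM in ES control, 104 CPM at day 8, 92.9 CPM at day 16 and 116 CPM at day 17. Tubb3 averaged 23 CPM in ES control, 882 CPM at day 8, 376 CPM at day 16 and 164 CPM at day 17. Slc17a6 went on climbing, with 0.0198 CPM in ES control, 7.33 CPM at day 8, 32.3 CPM at day 16 and 42.4 CPM at day 17, and Gfap stood at 0.969, 0.762, 575 and 2354 CPM in the same order. Pou5f1 averaged 698 CPM in ES control, 8.69 CPM at day 8, 19 CPM at day 16 and 6.13 CPM at day 17.

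**Figure D5:**
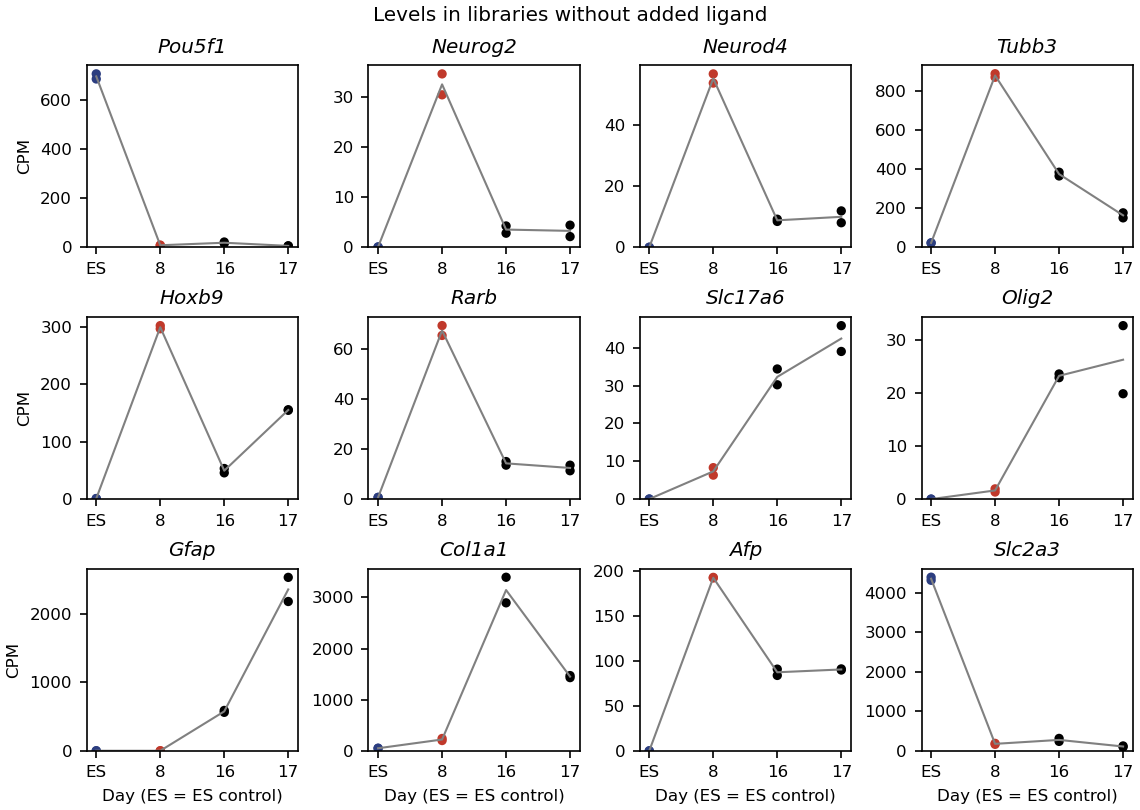
Levels of 12 genes in CPM in ES control and at days 8, 16 and 17 without added ligand, with points for the 2 libraries of a group and a line through the means. Neurog2, Neurod4, Tubb3, Hoxb9, Rarb and Afp are highest at day 8, Slc17a6, Olig2 and Gfap are higher at days 16 and 17, and Pou5f1 and Slc2a3 are highest in ES control.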

How the data were processed

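RNA was extracted with Trizol and sequenced as Illumina libraries, per the labels' protocols. The files deposited by the authors hold whole-number counts per gene symbol. Per the submitters' processing notes, the build was mm10 and the tools named are HTSeq 0.6.0, TopHat2 2.0.7, Cuffdiff 2.0.2 and Cufflinks 2.0.2, in no stated order. The annotation and strand setting are not given in the sources used here. Summary lines were left out of the library sizes. Of 23420 symbols, 98.4% matched GENCODE M21 (1260 through a synonym), which gave positions, exon lengths and, for each gene, how many of its 50-mers (stretches of 50 bases) recur in another gene. Promoters are RefSeq's, of GRCm38.p6.

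The 17166 genes passing filterByExpr were fitted in R 4.3.3 with edgeR 4.0.16 (TMM factors 0.9124 to 1.108) in 1 quasi-likelihood model of all 18 libraries and 9 groups, without a replicate block, so that 9 residual degrees of freedom set the spread. Tests were two-sided with Benjamini-Hochberg adjustment over all genes tested, and changes beyond 2-fold came from glmTreat. The code was checked on simulated counts. Replicate libraries differed beyond sampling noise, with a chi-square of 3.719 per gene at day 8 and 3.404 in ES control, so each counted once. The 2 libraries of day 16 with GW3965 stood apart from each other (42.064 per gene), and the fit was repeated without them.

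Genes, lists and cell type markers were chosen with earlier results of these data known. Named genes were the 8 largest rises and falls at 20 CPM or more past the 2-fold test, 15 always reported, all Hox genes, and from each list up to 4 largest changes past the 2-fold test and up to 2 exceptions. Some genes of the lists are not reported here by name. Other list members named beside them were chosen after their values were seen. Folds are given only for genes with 20 or more counts in the lower group, and a gene with no count in a group is given a lower bound from a floor of 3 counts per library, which covers counting error only. Alternatives used DESeq2 1.42.0, limma 3.58.1, other filters and fewer libraries.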

Additional observations from a re-analysis of the deposited data

How the results depend on the processing

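The number of genes that changed ranged from 12569 to 13674 over the 13 alternatives that tested a like number of genes, against 13518, and the number beyond 2-fold from 5139 (DESeq2 Wald test) to 6236 (no filter on low counts), against 6139. Leaving out 1 of the 4 libraries gave 12569 to 12722 genes, and 5651 to 5788 beyond 2-fold. The exception was chosen after seeing the data. With only the 9589 genes that share under 1% of their 50-mers, 7591 changed and 3792 changed beyond 2-fold, fewer because fewer genes were tested (79.2% and 39.5% of those tested). With the replicate number as a block, 13468 and 6118 genes were called. Deviations of same-numbered day 8 and ES control libraries from their group means correlated at 0.00129, within the -0.096 to 0.0691 of all 36 group pairs. This showed no sign of pairing, but 1 correlation cannot show whether same-numbered libraries share a culture or batch. Without the day 16 GW3965 libraries, also chosen after seeing the data, 13520 and 6142 genes were called.

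The next counts are for the test without a minimum fold and do not cover the calls beyond 2-fold. Of 9267 combinations of 684 genes of the lists or named genes with an alternative, 9085 kept their side of the threshold, 119 lost their call, 63 gained it and 0 changed direction past the threshold. Calls lost were of small changes or few counts. Hoxd11 was lost in 9 and Hoxb1 in 3 alternatives. Calls beyond 2-fold were less stable under the other tools. The DESeq2 Wald test kept 83.7% and limma-voom 89.7% of the 6139 genes beyond 2-fold, against 97.9% and 99.1% of the 13518 that changed. Of 88 counts of list members beyond 2-fold, 87 stayed within 2 members with the genes of shared 50-mers kept in, and rises on the anterior brain list ranged from 9 to 12. Where a group had under 20 counts the fitted fold moved with the library left out (Vrtn, log2 -7.15 to -9.81), so such folds are not given. The median log2 change of all genes stayed within 0.03 of 0.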

Other observations

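Few lipid genes of cholesterol synthesis changed beyond 2-fold. Of 22 such genes 1 rose (Hsd17b7, log2 1.34 ± 0.0878) and 2 fell (Dhcr7, log2 -1.32 ± 0.071, and Mvd, log2 -1.20 ± 0.104) beyond 2-fold, against 19.0% and 16.7% of all genes, and the median log2 fold change was -0.39. The call for Mvd beyond 2-fold was lost in 5 alternatives, among them the DESeq2 Wald test, limma-voom and the fits without ES control replicate 2 or day 8 replicate 1 (adjusted p = 0.0619 to 0.209). The sterol exporters parted, with Abca1 at 57.2 and 64.8 CPM at day 8, against 8.79 and 7.51 CPM in ES control (7.51-fold higher; adjusted p = 8.39e-16) and Abcg1 at 2.94 and 4.54 CPM at day 8, against 23.2 and 23.8 CPM in ES control (6.19-fold lower; adjusted p = 2.66e-13). Of the liver X receptors, Nr1h2 fell (46.9 and 47.3 CPM at day 8, against 72.1 and 70.7 CPM in ES control; log2 -0.60 ± 0.138) and Nr1h3 stayed under 2 CPM in both groups.

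Other nuclear receptors held some of the clearest switches. Nr2f1 and Nr2f2, the COUP-TF genes that retinoic acid is known to induce, had 145 and 135 CPM at day 8, against 0.352 and 0.316 CPM in ES control for Nr2f1 and 131 and 140.3 CPM at day 8, against 0.352 and 0.158 CPM in ES control for Nr2f2. Nr6a1, the germ cell nuclear factor, which represses Pou5f1 in the embryo, fell (46.9 and 42.3 CPM at day 8, against 210.5 and 201 CPM in ES control; log2 -2.21 ± 0.111). Of 23 tested receptors outside the retinoid group 8 rose and 7 fell beyond 2-fold, against 19.0% and 16.7% of all genes. Germline genes that ES cells express mostly fell, 11 of 18 beyond 2-fold with 2 higher, among them Ddx4, a germ cell helicase, at 0.774 and 0.751 CPM at day 8, against 26.8 and 27.1 CPM in ES control (log2 -5.13 ± 0.23). The 2 higher beyond 2-fold were Rhox5 (26.8 and 30.3 CPM at day 8, against 9.19 and 9.64 CPM in ES control; log2 1.60 ± 0.153) and Stra8, which retinoic acid induces in germ cells before meiosis (12.9 and 11.1 CPM at day 8, against 2.33 and 2.13 CPM in ES control; log2 2.43 ± 0.285).

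Stress and activity genes showed no common rise. Of 18 stress and apoptosis genes 1 rose (Chac1, log2 1.99 ± 0.264) and 5 fell beyond 2-fold, with Pmaip1, a cell death gene of the p53 pathway, at 3.83 and 3.66 CPM at day 8, against 47.9 and 45.4 CPM in ES control (log2 -3.64 ± 0.138). Of 13 immediate early genes 4 rose and 6 fell. Beyond 2-fold 1 rose (Npas4, 2.21 and 2.35 CPM at day 8, against 0.22 and 0.435 CPM in ES control). The 2 that fell beyond 2-fold were Arc (log2 -2.79 ± 0.189) and Junb (log2 -2.57 ± 0.258). Over all genes tested 19.0% were higher and 16.7% lower beyond 2-fold, and neither list was tested against these shares.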
